A study of Homo sapiens with 18 samples.

Results

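The genes described here are 10 components of the switch that commits a cell to leave G1 phase: the D-type cyclin genes CCND1, CCND2 and CCND3, the cyclin-dependent kinase genes CDK4, CDK6 and CDK2, the kinase inhibitor genes CDKN1B, CDKN1C and CDKN2C, and the retinoblastoma gene RB1. They were taken by symbol from a table of read counts for 58721 genes, and all 10 had a row. The rule uses no measured value, though the set was proposed with earlier results of these data known. A filter on low counts kept 21060 genes for testing, among them 9 of the 10. CCND2 did not pass it.

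RNA was sequenced from A375, an established human melanoma cell line. Its 18 libraries fall into 6 groups of 3 by their labels. The control is labelled wild type and received a guide that targets GFP, a gene absent from human cells. The labelled genotypes of the other groups are SOX10 overexpression in cells with the GFP guide, TADA2B knockout made with guide 1 or with guide 2, and TADA2B knockout plus SOX10 overexpression for each guide. TADA2B encodes an adaptor subunit of the SAGA histone acetyltransferase complex, and SOX10 is a transcription factor of the melanocyte lineage. Neither the promoter and vector of the SOX10 construct nor whether the lines are clones or pools is given in the sources used here.

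In G1 phase, growth signals raise the D-type cyclins, which bind CDK4 or CDK6 and start the phosphorylation of RB, the protein that holds E2F transcription factors silent. CDK2, with E- and A-type cyclins, completes that phosphorylation, and the freed E2F factors switch on genes of DNA replication. The INK4 inhibitors, such as p18 from CDKN2C, bind CDK4 and CDK6, while the CIP/KIP inhibitors, such as p27 from CDKN1B and p57 from CDKN1C, bind cyclin-kinase complexes. In melanoma, cyclin D1 is a well-known output of BRAF and MAPK signalling, and loss of the INK4 gene CDKN2A is common.

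Libraries held 58573910 to 79874237 counts. Levels are given in CPM, the count scaled to a common library size with TMM factors, in which a count of 3, the upper limit for a count of 0, corresponds to 0.0359 to 0.0493 CPM by library (counting error only). The TADA2B transcript was at 32.5 ± 0.318 CPM in control cells, 26.0 ± 0.402 with guide 1 and 28.8 ± 1.37 with guide 2 (SD, n = 3). SOX10 was at 354, 83.6 and 43.4 CPM in these groups, and at 452, 291 and 246 CPM with its overexpression. Of 9 melanocyte lineage markers, TYR stayed below the level of 3 counts on average in every group. The summed level of the 9 was 401 to 425 CPM in control libraries, 171 to 179 with guide 1 and 136 to 145 with guide 2, and 736 to 740, 403 to 420 and 328 to 338 with SOX10. SOX10 itself is 1 of the 9 and makes up most of that sum in control libraries. The other 8 summed to 60.9 to 61.2 CPM in control libraries, 88.7 to 92.1 with guide 1 and 94.8 to 100.4 with guide 2, and to 283 to 289, 113 to 122 and 85.1 to 90.2 with SOX10. Of all 9 markers 8 were tested, SOX10 among them, and in the knockout 3 of the tested markers were higher and 5 lower. Of all genes tested in that comparison, 28.6% were called higher and 29.5% lower. Markers of other cell types moved with the knockout: 7 epithelial markers summed to 194 CPM in control libraries and to 351 to 367 and 365 to 395 in the knockout lines, with CDH1 at 0 in control cells. The 8 fibroblast markers summed to 8.05 to 10.3 CPM in control libraries and to 39.3 to 43.3 and 43.2 to 46.2. Markers of further cell types moved with SOX10. The 5 endothelial markers summed to 3.70 to 4.74 CPM in control cells, 2.29 to 2.42 with guide 1 and 2.30 to 2.69 with guide 2, and to 10.9 to 11.5, 29.8 to 31.7 and 36.2 to 36.4 with SOX10. The 9 leukocyte markers summed to 8.45 to 9.45, 8.64 to 9.36 and 5.52 to 6.52 CPM in the same order, and to 5.44 to 6.21, 18.4 to 19.5 and 20.04 to 21.82 with SOX10. Mitochondrially encoded transcripts took 0.732% to 0.996% of counts in control libraries and 0.986% to 1.46% in the knockout groups. The part of these shifts in the results below was not tested, and in bulk RNA fewer cells of a type and less RNA per cell cannot be told apart.

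The knockout lowered most of the module and raised none of it with the main scaling. Of the 9 genes tested, 8 fell and 0 rose on average over the guides at an adjusted p under 0.05 (edgeR quasi-likelihood test, Benjamini-Hochberg adjustment over all genes) and CCND3 did not pass. In the same comparison 58.1% of all genes tested were called, 28.6% as higher and 29.5% as lower. The median log2 change was −0.56 over the 9 genes and −0.01 over all genes. Scaling by library size alone in place of TMM, the trimmed mean scaling used here, moved all changes against control up by a median of 0.16. It left 6 of the 9 lower and made 2 higher, CCND3 and CDK4. The falls of CCND1, CDK6, CDK2, CDKN1B, CDKN1C and CDKN2C therefore held under both scalings, and the small differences of CDK4, CCND3 and RB1 did not.

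**Figure D1:**
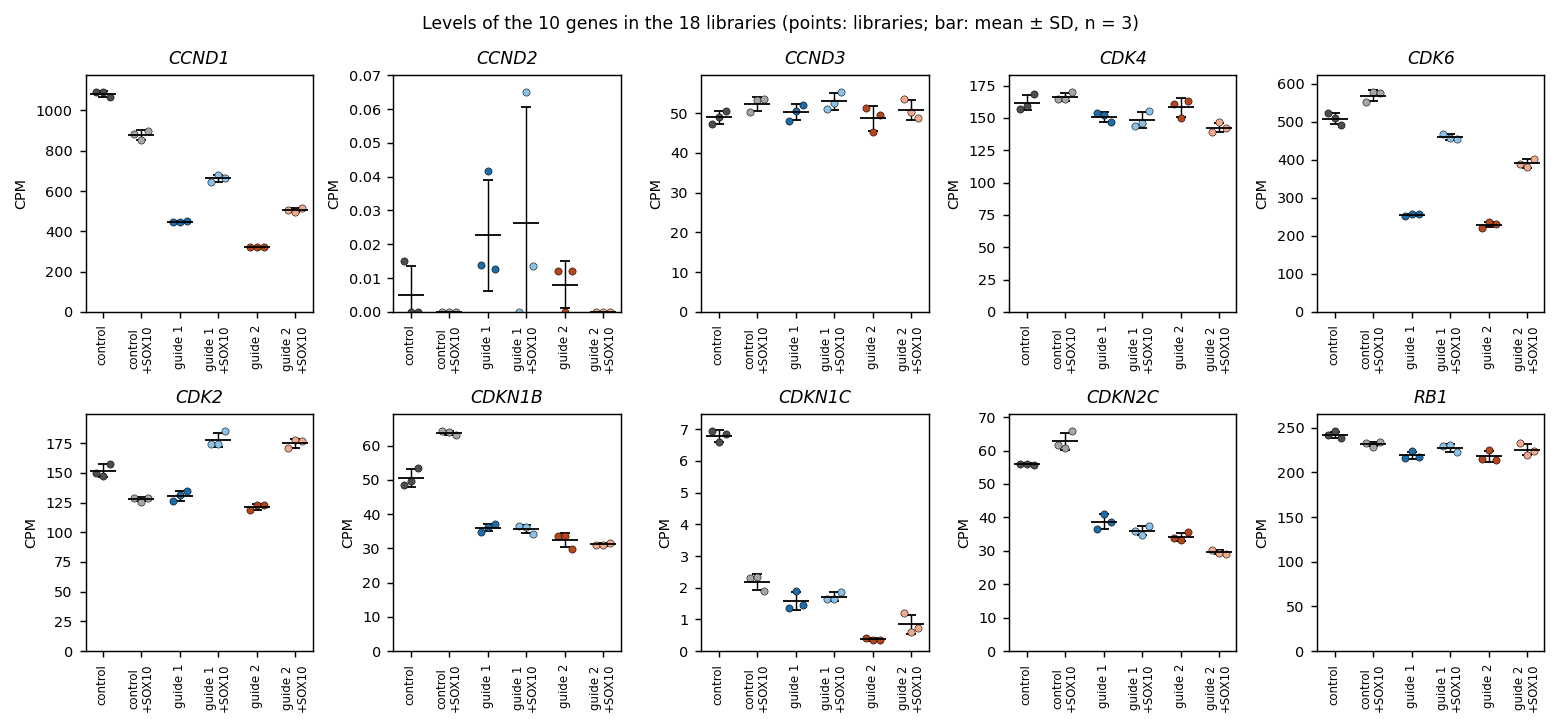
Level of each of the 10 genes in CPM (y axis, from 0) in the 6 groups (x axis). Points are the 3 libraries of a group and bars show their mean ± SD. CCND1, CDK6, CDK2, CDKN1B, CDKN1C, CDKN2C and RB1 were lower in every knockout library without SOX10 than in any control library. The share of all genes that stood apart in this way was not counted. CCND3 lay between 45.3 and 55.3 CPM in all groups.

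CCND1, which encodes cyclin D1, was the dominant D-type cyclin. CCND1 (ENSG00000110092; hg38 chromosome 11, 69641087 to 69654474, plus strand) stood at 1091, 1091 and 1065 CPM in the control libraries. It was at 444, 444 and 452 CPM with guide 1, and at 324, 322 and 323 CPM with guide 2. With SOX10 it was at 884, 852 and 898 CPM in control cells, 646, 679 and 664 CPM in guide 1 cells and 506, 497 and 516 CPM in guide 2 cells. The 6 groups did not overlap, and their order from high to low was control, control with SOX10, guide 1 with SOX10, guide 2 with SOX10, guide 1 and guide 2. Against control, CCND1 was 2.42-fold lower with guide 1 (log2 change −1.28, SE 0.025, adjusted p = 1.41e-34) and 3.35-fold lower with guide 2 (−1.74, SE 0.026, adjusted p = 2.67e-39). The 3 control libraries serve as reference for each guide. Exons of LTO1, on the opposite strand, cover 10.3% of the annotated exon bases of CCND1. The strand setting of the counting is not given in the sources used here.

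Cyclin D3 did not follow cyclin D1. CCND3 (ENSG00000112576; chromosome 6, 41934933 to 42050357, minus strand) was at 47.3, 49.1 and 50.5 CPM in control libraries, 48.1, 50.6 and 52.0 CPM with guide 1 and 51.2, 45.3 and 49.4 CPM with guide 2. All 3 ranges overlapped. With SOX10, CCND3 was at 50.2, 53.3 and 53.4 CPM in control cells, 51.1, 52.5 and 55.3 CPM in guide 1 cells and 53.6, 50.2 and 48.7 CPM in guide 2 cells. Its log2 change in the knockout was 0.01, with a 95% interval of −0.06 to 0.09 (adjusted p = 0.777). With library-size scaling that difference was 0.17 (adjusted p = 0.000197). CCND2 (ENSG00000118971; chromosome 12, 4273772 to 4305350, plus strand), the gene of cyclin D2, had 0 to 5 counts in any library, and 0 in the 3 libraries of control cells with SOX10 and the 3 of guide 2 cells with SOX10. Levels this near the floor allow no fold change. Exons of AC008012.1, on the same strand, cover 13.8% of the annotated exon bases of CCND2, and how shared reads were counted is not given.

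Since levels of different genes compare only per length, the D-type cyclins were also set side by side as CPM per kilobase of annotated exon. On this scale CCND1 stood at 224 ± 3.05 and CCND3 at 8.44 ± 0.277 in control cells (SD, n = 3). The summed level of the D-type cyclins went from 233 ± 2.82 in control cells to 101 ± 1.24 with guide 1 and 75.3 ± 0.733 with guide 2. CCND1 made up 96.4% of that sum in control cells, 91.4% with guide 1 and 88.9% with guide 2. With SOX10 its share was 95.3%, 93.8% and 92.3% in the same order. Using the longest annotated transcript as the length lowered the share to 92.5%, 83.2% and 78.7% without SOX10, in the same order of groups.

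The kinases that D-type cyclins bind moved apart, CDK6 falling in the knockout and CDK4 changing little. CDK6 (ENSG00000105810; chromosome 7, 92604921 to 92836594, minus strand) was at 523, 510 and 492 CPM in control libraries, 253, 258 and 257 CPM with guide 1 and 221, 236 and 231 CPM with guide 2. With SOX10 it was at 553, 578 and 575 CPM in control cells, 468, 458 and 454 CPM in guide 1 cells and 388, 380 and 402 CPM in guide 2 cells. The 6 groups of CDK6 libraries did not overlap, and the highest was control with SOX10. Its log2 change was −0.99 (SE 0.028, adjusted p = 5.61e-29) with guide 1 and −1.15 (SE 0.028, adjusted p = 2.26e-31) with guide 2.

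CDK4 (ENSG00000135446; chromosome 12, 57747727 to 57756013, minus strand) was at 157, 159 and 168 CPM in control libraries, 154, 152 and 147 CPM with guide 1 and 161, 150 and 163 CPM with guide 2. The guide 2 libraries overlapped the control libraries. With SOX10, CDK4 was at 164, 165 and 170 CPM in control cells, 143, 146 and 155 CPM in guide 1 cells and 139, 146 and 142 CPM in guide 2 cells, where every library lay below those of guide 2 without SOX10. Its log2 change averaged over guides was −0.07 (95% interval −0.12 to −0.01, adjusted p = 0.0492). That call was lost under 6 of 8 other settings and on leaving out replicate 2 or 3 of control, replicate 2 or 3 of guide 1, or replicate 2 of guide 2, where the log2 change ran from −0.08 to −0.04. With library-size scaling it turned to 0.09 (adjusted p = 0.00498). Exons of TSPAN31, on the opposite strand, cover 43.2% of the annotated exon bases of CDK4, and the strand setting of the counting is not given in the sources used here, so reads of these neighbours may not be fully separated. TSPAN31 was at 19.1 CPM in control cells, 23.4 with guide 1 and 22.6 with guide 2. Per kilobase, CDK4 made up 55.2% of the CDK4 and CDK6 sum in control cells, 69.5% with guide 1 and 72.7% with guide 2, and 53.1%, 55.5% and 58.6% with SOX10.

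**Figure D2:**
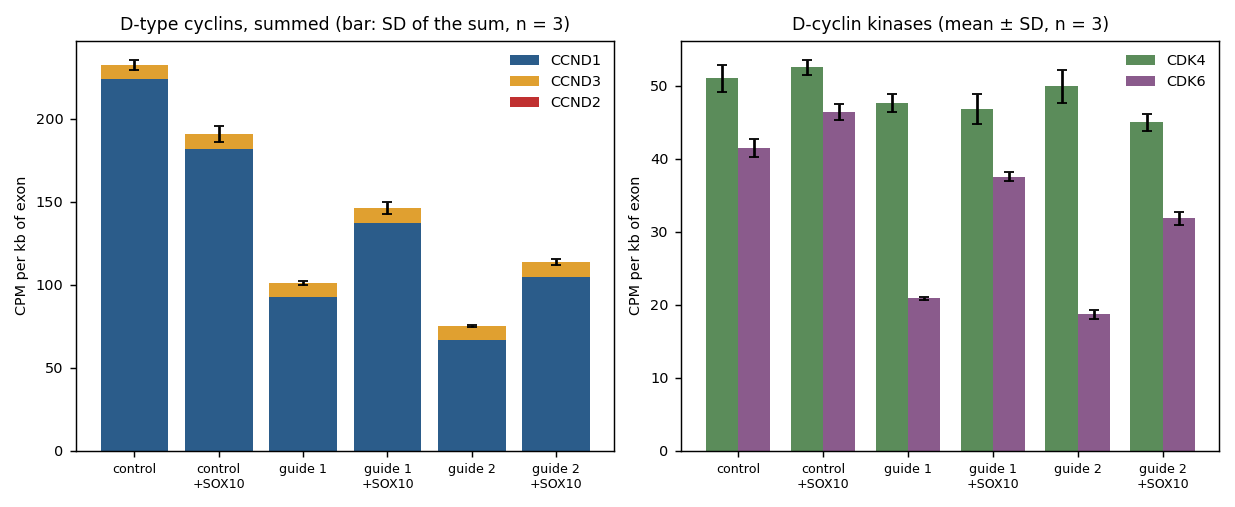
Left, summed level of CCND1, CCND3 and CCND2 in CPM per kilobase of exon by group, with the SD of the sum over 3 libraries. Right, CDK4 and CDK6 on the same scale as mean ± SD. CCND1 fills most of each bar and CCND2 is too low to be seen, and CDK6 falls from 41.4 in control cells to 20.9 and 18.7 in the knockout lines while CDK4 stays between 45.0 and 52.5.

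The sequences before the start sites of this pair of kinase genes are shown because they were measured in the same libraries and differed in response. RefSeq promoter windows (GRCh38.p14) were at hand for 6 of the 10 genes, and none for CCND1, CCND2, CDK2 and CDKN1C. Each run below holds the 250 bases before a start site, 5′ to 3′ on the strand of the gene. They are chr12:57752311-57752560 for CDK4, and chr7:92836574-92836823 and chr7:92833960-92834209 for the outer and the inner CDK6 start, all on the minus strand. Capitals mark matches on either strand to the letters ACAAAG (a SOX motif), TTTNNCGC (E2F), TGACG (a half-site of the cAMP response element), TGANTCA (AP-1) and CACGTG (E-box). The E-box was added after the windows had been seen.
CDK4: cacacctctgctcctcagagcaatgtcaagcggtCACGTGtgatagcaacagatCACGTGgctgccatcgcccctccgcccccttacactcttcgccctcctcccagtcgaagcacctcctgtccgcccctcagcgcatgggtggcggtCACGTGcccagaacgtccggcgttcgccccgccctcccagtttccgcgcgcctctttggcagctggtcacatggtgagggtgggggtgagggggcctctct
CDK6, outer start: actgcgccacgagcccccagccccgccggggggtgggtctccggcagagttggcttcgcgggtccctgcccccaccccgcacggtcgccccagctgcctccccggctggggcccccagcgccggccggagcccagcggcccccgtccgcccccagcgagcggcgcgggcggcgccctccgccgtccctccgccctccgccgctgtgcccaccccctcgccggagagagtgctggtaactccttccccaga
CDK6, inner start: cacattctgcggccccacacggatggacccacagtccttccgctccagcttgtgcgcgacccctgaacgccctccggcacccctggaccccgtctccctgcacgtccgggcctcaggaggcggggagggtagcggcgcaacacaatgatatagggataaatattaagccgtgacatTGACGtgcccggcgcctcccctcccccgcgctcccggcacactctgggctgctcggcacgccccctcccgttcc

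The CDK4 window held the E-box letters at 3 places, starting 216, 196 and 101 bases before the start, and 6.32% of 34943 promoter windows of this length hold them at least once. The inner CDK6 window held TGACG once, 74 bases before the start, as do 21.2% of all windows at least once. The SOX letters occurred in neither gene's windows and in 13.7% of all windows, the E2F letters in 5.89% and the AP-1 letters in 6.59%. Among the other members, the outermost CCND3 window held the SOX letters 2 times, and the CDKN1B window had no match. The only RB1 window held the AP-1 letters. It lies inside the gene (chr13:48476200-48476449), which begins at 48303726, so the sequence before that outer start was not searched. The E-box letters also occurred in the outermost and innermost windows of CDKN2C, 220 and 69 bases before the start. TGACG occurred in all 3 windows of CDKN2C. A match is a description of letters, not a measured site.

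CDK2, the kinase partner of E- and A-type cyclins, was above control in knockout cells with SOX10. CDK2 (ENSG00000123374; chromosome 12, 55966769 to 55972784, plus strand) was at 150, 147 and 158 CPM in control libraries, 126, 131 and 134 CPM with guide 1 and 118, 123 and 123 CPM with guide 2. With SOX10 it was at 129, 126 and 129 CPM in control cells, 174, 174 and 185 CPM in guide 1 cells and 171, 177 and 177 CPM in guide 2 cells. Every knockout library with SOX10 lay above every control library, and every knockout library without SOX10 lay below every control library. Averaged over guides, the knockout lowered it (log2 change −0.27, SE 0.027, adjusted p = 1.16e-11), and the fall with guide 1 did not pass with library-size scaling (−0.07, adjusted p = 0.0501). Knockout with SOX10 stood 0.22 above control (SE 0.027, adjusted p = 4.15e-09). Exons of the melanosome gene PMEL cover 2.29% of the CDK2 exon bases on the opposite strand, and PMEL was at no more than 1.79 CPM in any library. Exons of the antisense gene ENSG00000258554 cover a further 14.5%.

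All 3 inhibitor genes fell in the knockout, and CDKN1C, the gene of p57, had the largest fold. CDKN1C (ENSG00000129757; chromosome 11, 2883213 to 2885773, minus strand) was at 6.93, 6.58 and 6.84 CPM in control libraries, 1.37, 1.91 and 1.47 CPM with guide 1 and 0.431, 0.339 and 0.361 CPM with guide 2. With SOX10 it was at 2.32, 2.35 and 1.90 CPM in control cells, 1.64, 1.65 and 1.87 CPM in guide 1 cells and 1.19, 0.601 and 0.740 CPM in guide 2 cells. It was the lowest of the 9 tested members in counts, with 444 to 465 per control library and 23 to 36 per guide 2 library. It was 4.28-fold lower than control with guide 1 (log2 change −2.10, SE 0.149) and 17.8-fold lower with guide 2 (−4.16, SE 0.182), with adjusted p-values of 1.09e-15 and 1.05e-22. Control libraries stood above all others, and the ranges of guide 1 and guide 1 with SOX10 overlapped.

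CDKN1B and CDKN2C, the genes of p27 and p18, fell by similar amounts; their difference was not tested. CDKN1B (ENSG00000111276; chromosome 12, 12715058 to 12722371, plus strand) was at 48.6, 49.6 and 53.5 CPM in control libraries, 34.9, 36.2 and 37.1 CPM with guide 1 and 33.67, 33.61 and 29.96 CPM with guide 2. With SOX10 it was at 64.2, 63.9 and 63.0 CPM in control cells, 36.5, 36.3 and 34.2 CPM in guide 1 cells and 30.9, 31.0 and 31.6 CPM in guide 2 cells. The control groups with and without SOX10 stood apart from each other and above all knockout libraries, and within each guide the libraries with and without SOX10 overlapped. CDKN1B had a log2 change of −0.56 in the knockout (SE 0.037, adjusted p = 8.87e-17).

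CDKN2C (ENSG00000123080; chromosome 1, 50960745 to 50974633, plus strand) was at 56.1, 56.0 and 55.8 CPM in control libraries, 36.7, 41.0 and 38.6 CPM with guide 1 and 33.8, 33.3 and 35.5 CPM with guide 2. With SOX10 it was at 61.7, 60.8 and 65.7 CPM in control cells, 35.9, 34.8 and 37.4 CPM in guide 1 cells and 30.4, 29.4 and 29.1 CPM in guide 2 cells. The order was again control with SOX10, control, and then the knockout groups, with guide 2 and SOX10 the lowest. Its knockout change was −0.62 (SE 0.036, adjusted p = 1.03e-18).

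RB1, the substrate of these kinases, varied little. RB1 (ENSG00000139687; chromosome 13, 48303726 to 48599436, plus strand) was at 241, 246 and 238 CPM in control libraries, 216, 224 and 217 CPM with guide 1 and 215, 225 and 214 CPM with guide 2. The knockout libraries lay below the control libraries, with a log2 change of −0.15 (SE 0.024, adjusted p = 1.11e-06). With library-size scaling that difference was 0.0089 (adjusted p = 0.77), so its direction rests on the scaling. With SOX10, RB1 was at 232, 229 and 233 CPM in control cells, 230, 230 and 222 CPM in guide 1 cells and 232, 219 and 224 CPM in guide 2 cells.

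**Figure D3:**
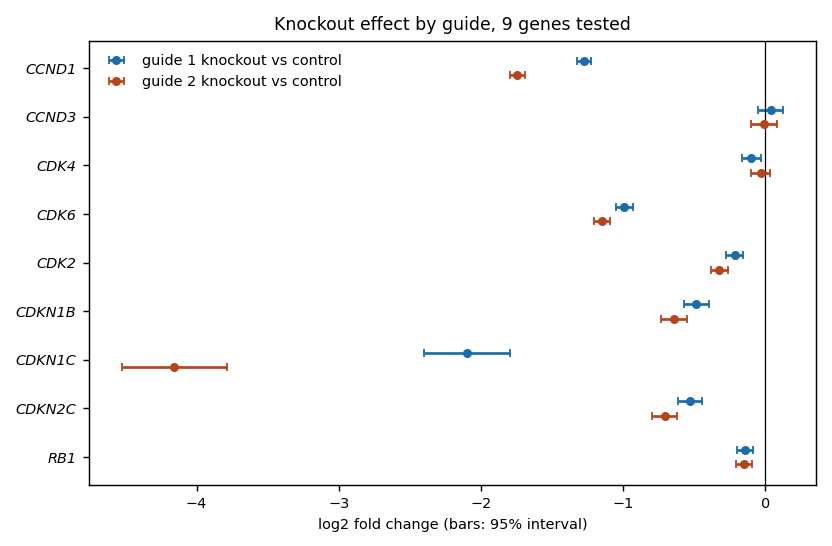
Fitted log2 fold change of the 9 tested genes (x axis) in guide 1 and guide 2 knockout cells against the same control libraries, with 95% intervals. CDKN1C lies farthest from 0, at −2.10 and −4.16, followed by CCND1 and CDK6, and CCND3 lies at 0.04 and −0.01.

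Where the guides differed with the main settings, guide 2 gave the lower level. Against control, guide 1 lowered 8 of the 9 genes and raised 0, where 52.6% of all genes were called, 26.2% as higher and 26.4% as lower. With library-size scaling guide 1 lowered 5 and raised 1, and its CDK4 call was also lost on leaving out replicate 3 of control or replicate 3 of guide 1 (adjusted p = 0.106 and 0.0751). Guide 2 lowered 7 and raised 0, where 55.9% were called, 27.9% as higher and 28.1% as lower. Library-size scaling gave 6 lower and 2 higher for guide 2. In the direct comparison 6 members were lower with guide 2 and 0 higher, where 8.74% of all genes were called, 2.65% as higher and 6.09% as lower. The log2 difference, guide 2 minus guide 1, was −2.06 for CDKN1C (SE 0.204, adjusted p = 2.79e-10), −0.47 for CCND1 (SE 0.025, adjusted p = 3.08e-18) and −0.16 for CDK6 (SE 0.028, adjusted p = 7.87e-05). The differences of CDKN2C (−0.18), CDKN1B (−0.16) and CDK2 (−0.11) were small. Leaving out guide 1 replicate 2 ended the calls of all 3 of these, guide 1 replicate 3 those of CDKN1B and CDK2, guide 2 replicate 1 that of CDK2 and guide 2 replicate 3 that of CDKN1B. With only the groups compared, CDK2 and CDKN1B lost their calls (adjusted p = 0.0629 and 0.0744), as CDK2 did with no filter (0.0537). Without guide 2 replicate 2, CDK4 was called higher with guide 2 (0.10, adjusted p = 0.0386). With SOX10 in both lines, 5 members were lower in guide 2 cells and 0 higher (12.1% of all genes called, 5.05% as higher and 7.01% as lower), CDKN1C by −1.003 and CCND1 by −0.39.

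SOX10 overexpression in control cells lowered the transcripts of cyclin D1, CDK2 and the inhibitor p57 and raised those of CDK6, p27 and p18. Of 9 genes, 3 rose, 3 fell and 3 did not pass, against 34.4% of all genes called, 17.3% as higher and 17.2% as lower. CCND3, which did not pass, was called higher with no filter (0.11, adjusted p = 0.0342) and with only the groups compared (0.10, adjusted p = 0.0279). The falls were in CDKN1C (log2 change −1.63, SE 0.144, adjusted p = 1.61e-12), CCND1 (−0.30, SE 0.025, adjusted p = 1.87e-13) and CDK2 (−0.25, SE 0.031, adjusted p = 1.27e-08). The rises were in CDKN1B (0.33, SE 0.043, adjusted p = 2.05e-08), CDK6 (0.16, SE 0.028, adjusted p = 7.97e-06) and CDKN2C (0.16, SE 0.041, adjusted p = 0.00141). The SOX10 transcript itself rose by 0.35 in these cells, less than in the knockout lines, where it rose by 2.15.

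In knockout cells SOX10 raised cyclin D1, CDK6, CDK2 and p57 transcripts and did not raise those of p27 or p18. Over both guides 5 of 9 genes rose, 2 fell and 2 did not pass, against 56.2% of all genes called, 28.1% in each direction. The log2 rise of CDK6 was 0.81 (SE 0.020, adjusted p = 1.82e-31), that of CCND1 0.61 (SE 0.018, adjusted p = 5.24e-29) and that of CDK2 0.49 (SE 0.022, adjusted p = 2.16e-22). CDKN1C rose by 0.65 (SE 0.139, adjusted p = 0.000104), with values of 0.12 in guide 1 cells (adjusted p = 0.596) and 1.18 in guide 2 cells (adjusted p = 2.57e-05). CDKN2C and CDK4 fell, with log2 changes of −0.16 and −0.09, and CDKN1B gave −0.04 (adjusted p = 0.364). RB1 rose by 0.05 (adjusted p = 0.0216), a call that was lost under RLE and library-size scaling, DESeq2 and no filter, and without guide 1 SOX10 replicate 2 or guide 2 SOX10 replicate 1 (adjusted p = 0.0550 to 0.0749). CCND3 gave 0.07 (adjusted p = 0.0548), which passed with no filter, with a filter at a mean of 1 CPM, with the replicate block and without guide 1 replicate 3, guide 1 SOX10 replicate 1, guide 2 replicate 1 or 3 or guide 2 SOX10 replicate 2 or 3. Within guide 1 cells 3 members rose and 1 fell, where 43.7% of all genes were called, 22% as higher and 21.7% as lower. That fall, of CDKN2C, was lost with no filter (adjusted p = 0.122), with only the groups compared (0.0552) and without some single libraries. Within guide 2 cells 4 rose and 2 fell, where 48.6% were called, 24.6% as higher and 24% as lower.

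**Figure D4:**
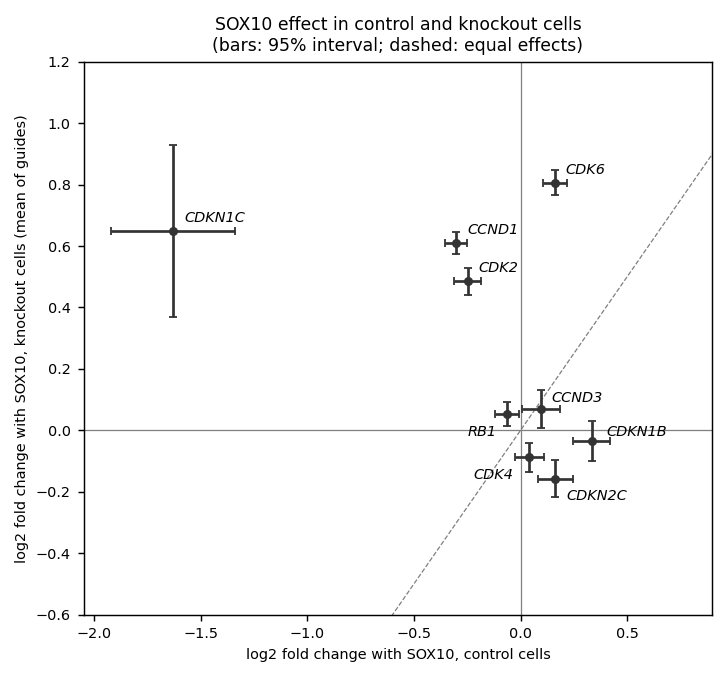
Fitted log2 change with SOX10 overexpression in control cells (x axis) and in knockout cells averaged over guides (y axis) for the 9 tested genes, with 95% intervals, and a dashed line where both effects would be equal. CCND1, CDK2 and CDKN1C lie at upper left, lower with SOX10 in control cells and higher in knockout cells, and CDK6 is higher in both.

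The difference between these SOX10 effects was itself tested, as knockout minus control, and passed for 8 of 9 members, 5 higher and 3 lower (33.3% of all genes called, 18.1% as higher and 15.1% as lower). It was 2.28 on the log2 scale for CDKN1C (SE 0.199, adjusted p = 2.07e-12), 0.91 for CCND1 (SE 0.030, adjusted p = 8.38e-26), 0.73 for CDK2 (SE 0.038, adjusted p = 1.87e-19) and 0.65 for CDK6 (SE 0.034, adjusted p = 4.65e-19). It was negative for CDKN1B (−0.37, SE 0.053, adjusted p = 3.60e-07), CDKN2C (−0.32, SE 0.051, adjusted p = 2.58e-06) and CDK4 (−0.13, SE 0.041, adjusted p = 0.0116). The CDK4 call was lost without control replicate 1 or 2, where the adjusted p was 0.0563 and 0.0533. The RB1 difference of 0.11 was lost with no filter on low counts (adjusted p = 0.0619). For CCND3 the difference was −0.03 (adjusted p = 0.777).

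Knockout cells with SOX10 remained different from untreated control cells in most of the module. Of 9 genes, 7 were lower, CDK2 was higher and CCND3 did not pass (57.9% of all genes called, 30% as higher and 27.9% as lower). Library-size scaling gave 5 lower and 2 higher, with CCND3 called higher (0.23, adjusted p = 2.12e-06), CDK4 lost (−0.0061, adjusted p = 0.87) and RB1 turned in sign. CCND3 also passed with no filter, with a filter at a mean of 1 CPM, with only the groups compared, and without control replicate 3, guide 1 SOX10 replicate 1 or guide 2 SOX10 replicate 3 (adjusted p = 0.0111 to 0.0472). With the main settings, the log2 change from control was −0.26 for CDK6, −0.90 for CCND1, −2.48 for CDKN1C, −0.60 for CDKN1B and −0.78 for CDKN2C, all with adjusted p-values of 1.48e-12 or less. Among cells that all overexpressed SOX10, knockout against control changed 7 of 9 genes (55% of all genes called, 28.2% as higher and 26.7% as lower), with CDKN2C at −0.94 and CDKN1B at −0.93 the lowest and CDK2 at 0.46 the only one higher with TMM scaling. With library-size scaling 3 were higher, CDK2, CCND3 (0.13, adjusted p = 0.00288) and RB1 (0.11, adjusted p = 0.000104), and CDK4 lost its call (adjusted p = 0.113).

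The rest of the G1 pathway was followed through 56 other genes in 7 lists, of which 55 were tested. In the knockout 36 fell, 12 rose and 7 did not pass, or 27 and 17 with library-size scaling, with a median log2 change of −0.20 against −0.01 for all genes. Each list's counts in the knockout stand against 58.1% of all genes called, 28.6% as higher and 29.5% as lower. All 14 RB-E2F target genes, most of which serve DNA replication, fell under both scalings, and their median was −0.38. The replication helicase gene MCM3 (log2 change −0.60) and the thymidylate synthase gene TYMS (−0.69) were among them. With SOX10, 12 of the 14 fell in control cells and none rose (median −0.14), while in knockout cells 10 rose and CDT1 alone fell (median 0.18). Of all genes, 17.3% were called higher and 17.2% lower with SOX10 in control cells, and 28.1% in each direction in knockout cells. The knockout and the SOX10 comparison in knockout cells share the knockout libraries, and the knockout and the SOX10 comparison in control cells share the control libraries.

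E-type cyclins split. CCNE1 was at 24.2 ± 0.858 CPM in control cells, 31.6 ± 0.648 with guide 1 and 31.8 ± 1.22 with guide 2 (log2 change 0.39, SE 0.042, adjusted p = 9.39e-11). CCNE2 was at 36.3 ± 1.11 CPM in control cells, 25.4 ± 0.462 with guide 1 and 23.9 ± 0.756 with guide 2 (−0.56, SE 0.038, adjusted p = 2.30e-16). SOX10 brought CCNE2 to 25.6 CPM in control cells and to 34.2 and 32.2 CPM in the knockout lines. Of the A-type cyclins, CCNA1, best known from the germ line, rose (1.30, adjusted p = 9.13e-15) and CCNA2 fell.

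Among the other inhibitor genes, CDKN1A, the gene of p21, rose in the knockout from 104 ± 1.06 CPM to 147 ± 3.98 and 122 ± 3.12 (log2 change 0.36, SE 0.027, adjusted p = 4.34e-15). With SOX10 it rose by 0.25 in control cells and fell in knockout cells, with a change of −0.39, and the difference of these effects was −0.63 (SE 0.038, adjusted p = 1.56e-17). CDKN2D, an INK4 gene, rose by 0.49 in the knockout, and CDKN3 fell with a change of −0.17, a call lost with library-size scaling (−0.0093, adjusted p = 0.88). CDKN2A was at 0.559 to 1.1 CPM in single libraries and did not pass in the knockout (−0.03, adjusted p = 0.917). CDKN2B had 0 to 2 counts in any library and was not tested. With SOX10 in knockout cells, CDKN1A was the only one of the 4 tested to change.

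E2F1, the best-known activator of the family, fell from 42.6 ± 1.80 CPM in control cells to 28.1 ± 1.71 and 25.7 ± 2.96 in the knockout lines (log2 change −0.66, SE 0.054, adjusted p = 2.37e-11). SOX10 raised E2F1 by 0.44 in knockout cells and lowered it in control cells (−0.36). Of 10 E2F and DP genes, 6 fell in the knockout, and E2F4, E2F5 and E2F7 rose, where 29.5% and 28.6% of all genes fell and rose. Library-size scaling left 5 lower and 4 higher, without the fall of E2F6 and with TFDP1 higher. With SOX10 in knockout cells 5 rose (E2F1, E2F2, E2F3, E2F8 and TFDP2) and 4 fell (E2F4, E2F5, E2F7 and TFDP1). SKP2, which marks p27 for degradation, went from 155 ± 2.29 CPM to 174 ± 2.03 and 192 ± 6.34 (log2 change 0.24, SE 0.025, adjusted p = 4.80e-11) in the knockout, and FBXO4, of the same family of ligase subunits, rose by 0.70. The other 6 genes of cyclin and p27 turnover that changed in the knockout fell. With library-size scaling only CUL1 and CKS2 of these 6 stayed lower, and CKS1B was called higher. In knockout cells with SOX10, FBXW7 and SKP1 of that list rose and CKS1B and CKS2 fell.

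Of 6 genes that activate or restrain the kinases, WEE1, CDC25A, CDC25B and MNAT1 fell in the knockout and CDK7 and CCNH rose, and the fall of MNAT1 was lost with library-size scaling. WEE1, which restrains CDK1 and CDK2, had a log2 change of −0.59 (adjusted p = 1.73e-19) and rose by 0.34 with SOX10 in knockout cells, as CDC25A did by 0.05 (not with library-size scaling, adjusted p = 0.0797), while CDC25B fell. Of 8 genes of the pocket protein and DREAM complexes, LIN52, RBBP4 and MYBL2 fell in the knockout and LIN9 rose, a share called near the 58.1% of all genes. RBBP4 and MYBL2 rose with SOX10 in knockout cells. Library-size scaling gave 4 higher and 1 lower of these 8 in the knockout, and 2 higher and 2 lower with SOX10 in knockout cells. In these lists, genes beyond those of the naming rule are given because their number was small, after their values had been seen.

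**Figure D5:**
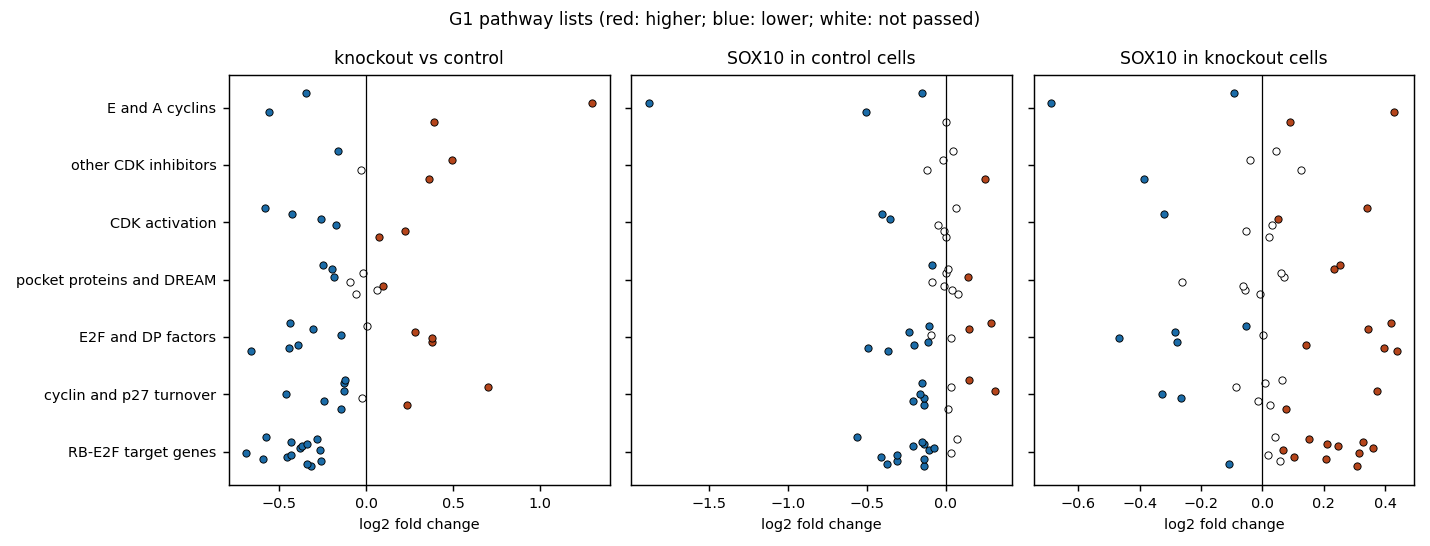
Fitted log2 fold change (x axis, a separate range in each panel) of 55 G1 pathway genes in 7 lists (rows) for the knockout averaged over guides, SOX10 in control cells and SOX10 in knockout cells. Red points are genes called higher, blue points genes called lower and white points genes that did not pass. The RB-E2F targets are all blue in the knockout panel and mostly red in the panel of SOX10 in knockout cells.

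Over the 18 libraries, log2 CPM of CCND1 ran most closely with ST3GAL4 (r = 0.988), MOK (0.988), ACSL3 (0.988), TIMP3 (0.987) and CDK2AP1 (0.987) among 1542 other genes with a mean of at least 5 CPM and a range of at least 1 on the log2 scale between group means. These 5 were named by a fixed rule of highest Pearson correlation, and the points share their libraries and group structure. TIMP3, for example, was at 1856 CPM in control cells, 222 with guide 1 and 104 with guide 2, and at 1808, 565 and 295 CPM with SOX10. Among the members, CDK6 (r = 0.919), CDKN1C (0.903) and RB1 (0.862) ran closest to CCND1 and CCND3 least (0.208). All these correlations were computed with TMM scaling only. The knockout change of RB1 was −0.15 with TMM and 0.0089 with library-size scaling, so its place in this order may rest on the scaling.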

How the data were processed

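RNA from 18 libraries was counted per gene. The authors deposited raw read counts, made with HISAT2 and HTSeq on hg38 per the submitters' processing notes; the sources used here give no version, annotation or strand setting. The libraries were made with a stranded mRNA kit, per the labels' protocols. Symbols, hg38 positions and exon lengths came from GENCODE 29 by identifier.

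The test was that of edgeR 4.0.16, under R 4.3.3: filterByExpr, TMM factors, 1 robust quasi-likelihood fit of 6 group means to all 18 libraries (12 residual degrees of freedom), two-sided F tests and Benjamini-Hochberg adjustment over 21060 genes, with a threshold of 0.05. SE is the fitted change divided by the root of F. The procedure was tested on simulated data in which few genes changed, as many up as down, with the same spread for all genes. That setting differs from these data, so it cannot show how the choice of scaling acts here. DESeq2 1.42.0, other scalings and filters, a replicate block and leaving out each library were tried as alternatives. Fits of compared groups share the spread of all groups.

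The members and lists were chosen with earlier results of these data known. Named beyond the 10 members are the 4 pathway genes with the largest rise and the 4 with the largest fall called with both guides, 7 set genes (CDKN1A, CDKN2A, CDKN2B, CCNE1, CCNE2, E2F1 and SKP2) and the 5 genes most like CCND1. Libraries of a group differed by more than counting noise (chi-square per degree of freedom 3.54 to 11.8). The labels do not say whether they were separate cultures, so p-values measure the spread between these libraries, which may be technical. Data columns of unknown sample numbered 0.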

Additional observations from a re-analysis of the deposited data

Results flagged for a closer look

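Results are given here where a test of the difference between 2 effects passed at an adjusted p under 0.05 (edgeR quasi-likelihood test). The effect of SOX10 in knockout cells minus its effect in control cells was 2.28 on the log2 scale for CDKN1C, 0.911 for CCND1, 0.734 for CDK2, 0.645 for CDK6 and 0.115 for RB1. It was −0.369 for CDKN1B, −0.321 for CDKN2C and −0.129 for CDK4. The knockout effect with guide 2 minus that with guide 1 was −2.06 for CDKN1C, −0.468 for CCND1, −0.178 for CDKN2C, −0.157 for CDK6, −0.156 for CDKN1B and −0.107 for CDK2. The RB1 difference did not pass with no filter on low counts (adjusted p = 0.0619). The CDK4 difference did not pass without control replicate 1 or 2 (adjusted p = 0.0563 and 0.0533). Without guide 1 replicate 2, the guide differences of CDKN2C, CDKN1B and CDK2 did not pass. Those of CDKN1B and CDK2 were also lost under other settings. CDK2, CCND1, CDKN1C and CDKN2C had called SOX10 effects of opposite sign in control and knockout cells, while CDK6 rose in both. The CDKN1C rise did not pass in guide 1 cells alone (0.12, adjusted p = 0.596). The SOX10 transcript differed between the backgrounds as well, rising by 0.35 in control cells and by 2.15 in knockout cells, and its part in these differences was not tested.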

How the results depend on the processing

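With library-size scaling, which moved changes against control up by a median of 0.14 to 0.16, 10 values of CDK4, RB1 and CCND3 turned sign: in the knockout, CDK4 to 0.0907 over both guides, 0.049 with guide 1 and 0.13 with guide 2, RB1 to 0.0089, 0.0057 and 0.012, and CCND3 to 0.16 with guide 2; in knockout with SOX10 against control, RB1 to 0.0519; within SOX10-overexpressing cells, CCND3 to 0.13 and RB1 to 0.11. Which of the scalings lies closer to the true levels was not tested. No other alternative turned a called value. Counts of members changed stayed within 1.5 times of the main count under all settings except without guide 1 replicate 2, where 3 rather than 6 members differed between the guides. Over the fits leaving out 1 library each, these counts ran from 7 to 8 in the knockout, from 3 to 7 between the guides, from 6 to 6 for SOX10 in control cells, from 6 to 8 for SOX10 in knockout cells and from 7 to 8 for the difference of the SOX10 effects. CDKN2C in guide 1 cells with SOX10 lost its call without guide 1 replicate 2 or 3 or guide 1 SOX10 replicate 1 or 2. That call was also lost with no filter on low counts (adjusted p = 0.122) and with only the groups compared (0.0552). Libraries with the same number showed no strong shared deviation (correlations of −0.0295 to 0.0711 over 45 pairs). The labels do not say what the numbers share, and weak correlations cannot show that they share nothing. With the replicate block, 8 members changed in the knockout, 6 with SOX10 in control cells and 8 with SOX10 in knockout cells, the last including CCND3 (adjusted p = 0.0472). CCND3 also passed there with no filter (0.0433), a filter at a mean of 1 CPM (0.0334) and without guide 1 replicate 3, guide 1 SOX10 replicate 1, guide 2 replicate 1 or 3 or guide 2 SOX10 replicate 2 or 3 (0.0119 to 0.0422). CCND2, with 0 to 5 counts per library, is below what this depth allows to compare.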

Other observations

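Within the E2F family, the genes usually described as activators and those usually described as partners of the other pocket proteins went in opposite directions. E2F2 was at 23.3 ± 1.19 CPM in control cells, 18.1 ± 0.700 with guide 1 and 16.2 ± 0.804 with guide 2 (SD, n = 3), and E2F3 was at 88.5 ± 2.56, 67.9 ± 0.577 and 67.0 ± 2.26 CPM. E2F4 was at 123 ± 4.42 CPM in control cells, 156 ± 0.986 with guide 1 and 162 ± 10.8 with guide 2, and E2F5 at 16.3 ± 0.713, 19.8 ± 1.02 and 22.6 ± 0.904 CPM. The knockout change was −0.44 for E2F2 and −0.39 for E2F3, and 0.38 each for E2F4 and E2F5, with adjusted p-values of 3.79e-08 or less (edgeR quasi-likelihood test).

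With SOX10 the knockout lines stood at 23.2 ± 1.30 and 21.7 ± 1.04 CPM for E2F2 and at 15.3 ± 1.07 and 15.3 ± 0.769 CPM for E2F5. The SOX10 effect in knockout cells minus that in control cells was 0.89 for E2F2 (SE 0.068, adjusted p = 4.99e-14), 0.35 for E2F3 (SE 0.043, adjusted p = 1.36e-08), −0.16 for E2F4 (SE 0.043, adjusted p = 0.0023) and −0.50 for E2F5 (SE 0.073, adjusted p = 5.47e-07). These genes were singled out after their values had been seen.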
